A study of Drosophila melanogaster with 12 samples.

Results

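In the larval brain of Drosophila melanogaster, type II neuroblasts were compared late in the larval course against early, and the genes of interest were those whose 6 late libraries all lay on one side of all 6 early libraries. The late group was formed by the neuroblasts taken at 50 h and 84 h after larval hatching, and the early group by those taken at 24 h and 36 h, with 3 libraries per age, 6 per group and 12 in all. Each library held RNA from 93 to 132 sorted GFP-labelled cells, pooled from dissected brains that had been dissociated with pronase and dispase. All larvae were raised at 25 °C and hatched within 2 h of each other. No treatment is named, and the genotype and the driver of the GFP are not stated in the labels, which name the same cells at every age. Levels were set by scaling the deposited counts to CPM (counts scaled to a common library size, here 1000000 gene counts adjusted by TMM factors). A gene was taken as not overlapping when its lowest library in the higher group exceeded its highest library in the lower group. Of 7978 genes with enough counts to be tested, 618 did not overlap, of which 288 were higher late and 330 lower late. Those are 7.75%, 3.61% and 4.14% of all genes tested. Since these genes were picked by their late and early levels, their difference between the groups is described here without a p-value, while their changes inside each group, from 24 to 36 h and from 50 to 84 h, have a direction that the choice did not use and were tested.

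Type II neuroblasts are stem cells that renew themselves and bud off intermediate progenitors, which divide in turn before they make neurons and glia, so that each stem cell gives a large and varied lineage. Larval neuroblasts change what they make with age. Young ones carry the RNA-binding protein Imp and the zinc-finger protein Chinmo, old ones the RNA-binding protein Syp and ecdysone-induced factors such as E93, and the orphan nuclear receptor Seven-up and the steroid hormone ecdysone, acting through its receptor EcR, are known to act in the passage between these states. The title of the series names factor gradients triggered by Seven-up, and late against early asks which transcripts differ across that passage.

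The libraries held genes that go with the label of type II neuroblasts, though not all at like levels. The neuroblast genes dpn, mira, insc and btd were present in all 12 libraries, with medians of 197, 555, 64.8 and 84.2 CPM late, against 208, 481, 51.5 and 84.7 CPM early. Of the same list pnt had medians of 557 CPM late and 596 CPM early. Of its 15 genes 1 was called higher late and 5 lower (against 10.3% and 12% of all genes tested). Their sum was 38453 to 128974 CPM late and 104085 to 231456 CPM early. The noncoding RNA CR43283 alone had 33361 to 123051 CPM late and 98331 to 225975 CPM early. The type I neuroblast gene ase had medians of 3.58 CPM late and 5.91 CPM early, and the progenitor gene erm 0.185 and 0.197 CPM. The hemocyte genes He and eater and the fat body genes Lsp2 and Fbp1 had no count in any early library and medians of 0 CPM in the late ones. Of the same list crq, a scavenger receptor gene, had medians of 42.5 CPM late and 33.1 CPM early, Lsp1beta reached 2.58 and 2.98 CPM, srp 4.35 and 1.49 CPM, Hml 2.25 and 0.213 CPM, and Pxn 0.805 and 0.59 CPM. Summed over 15 neuron markers the level was 410 to 507 CPM late and 365 to 539 CPM early, over 10 glia markers 437 to 599 and 445 to 694 CPM, over 10 hemocyte and fat body markers 28.0 to 67.3 and 30.0 to 67.1 CPM, and over 8 muscle markers 3.44 to 9.02 and 0.767 to 10.2 CPM. Of the tested markers 0 of 11 neuron genes were higher late and 2 lower (fne and futsch), 1 of 7 glia genes was lower (Eaat1), 0 of 2 hemocyte and fat body genes differed, 1 of 2 muscle genes was higher (Mhc), and 1 of 5 optic lobe and eye disc genes was higher and 1 lower (Optix and eya). In 12 fits that each left out a library the call of Optix was lost in 7 and that of Mhc in 2. The sum over 23 heat shock and stress genes was 13147 to 17611 CPM late and 13908 to 26185 CPM early. The part of such markers in the differences below was not tested. Late libraries held 4512098 to 5765181 gene counts, early ones 4668707 to 8391731. In these pooled samples fewer cells of a kind and less RNA per cell cannot be told apart.

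Across all genes, 1782 (22.3%) were called between late and early libraries by edgeR's quasi-likelihood test at an adjusted p under 0.05, 825 higher late (10.3%) and 957 lower late (12%). That split depended on the scaling. Under scaling to the totals of the ERCC spike-in RNA the median log2 difference of all genes was 1.31 in place of 0.04, and 4560 genes were called higher late and 37 lower. On the TPM of the authors, which are scaled by transcript length, with limma 1306 were higher and 490 lower. "Lower late" therefore means lower relative to the other genes of the library. Scaling to spike-in totals shifts all genes of a library by the same factor. The distance of a gene or list from the median of all genes thus changes little under it. Such distances, where given below, are no separate support. The genes that did not overlap made up 594 of the 1782, and the other 1188 called genes had late and early levels that overlapped, among them 375 with at least a 2-fold difference. Of the 618, 24 did not overlap and yet missed the threshold of the test. The 618 had more counts than most genes, with a median level in their higher group of 79.8 CPM, against 21.0 CPM over all genes tested. Bare CG or CR numbers in place of a gene name made up 35.9% of them and 47.2% of the genes tested. None was without a count in its lower group, and 39 had a mean there under 1 CPM.

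**Figure D1:**
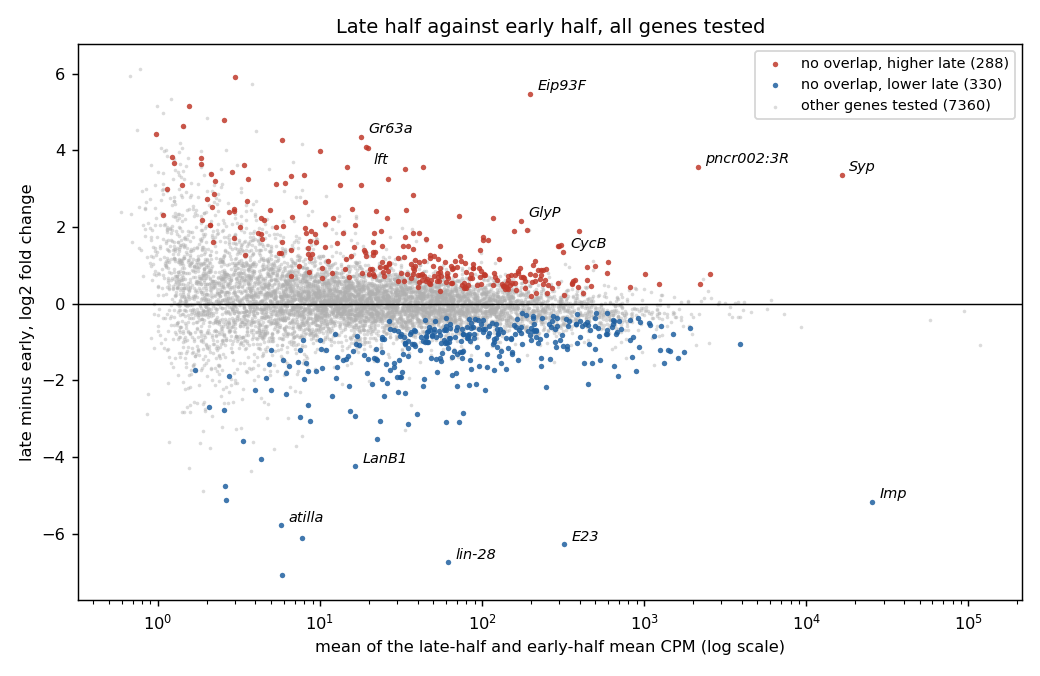
Late minus early log2 fold change of each of 7978 genes tested (vertical axis) against the mean of its late and early mean CPM (horizontal axis, log scale). Red points are the 288 genes that did not overlap and were higher late, blue points the 330 that were lower late, and grey points the other 7360. Imp, Syp and pncr002:3R stand at the right and lin-28 and E23 at the bottom.

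The step between 36 and 50 h was the main one for most of these genes. It was the largest of the 3 changes between neighbouring ages in 500 of the 618 genes (80.9%). Taken in the direction of the gene's late minus early difference, the median log2 change was 0.21 from 24 to 36 h, 0.79 from 36 to 50 h and 0.13 from 50 to 84 h, over intervals of 12, 14 and 34 h. The choice of genes favours a large middle step and limits how far levels can differ inside a group, so these medians and the shapes below describe the genes and test nothing. The direction of the changes inside the groups was left free by the choice. The share of them called was not, since the choice limits spread inside a group and these genes have more counts. The shares of all genes are given beside it as background and are no test of the 618. From 24 to 36 h 13 of the 618 were called (2.1%, against 0.902% of all genes tested), 7 upward and 6 downward (against 0.451% each way), all in the direction of the later change. From 50 to 84 h 58 were called (9.39%, against 3.06% of all genes tested), 18 upward (against 1.17%) and 40 downward (against 1.89%), 52 onward in the same direction and 6 back. For 551 neither change inside a group was called. These counts leaned on single libraries. The 72 genes called over all genes from 24 to 36 h became 40 without the second 24 h library, 180 without the third 24 h library and 29 without the third 36 h library. The 244 called from 50 to 84 h became 109 or 133 without the second or the third 50 h library and 133 or 121 without the second or the third 84 h library. Between 50 and 36 h 232 of the 618 were called, 95 upward and 137 downward, out of 339 over all genes tested (4.25%, of which 1.88% upward and 2.37% downward), a contrast that the choice of genes had used. The 339 became 157 without the second 36 h library and 186, 212 and 199 without the first, the second and the third 50 h library.

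**Figure D2:**
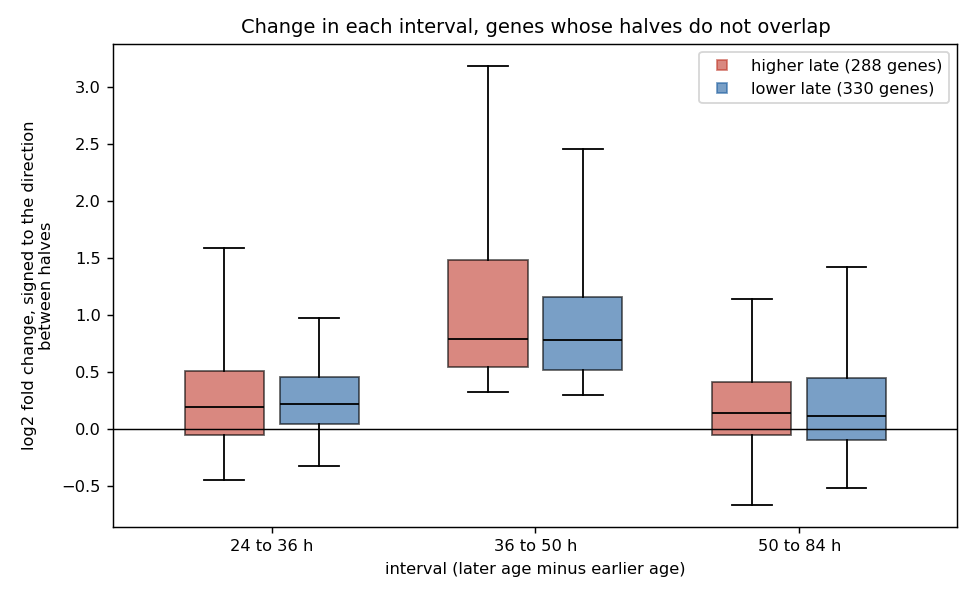
Log2 fold change in each interval between neighbouring ages for the 288 genes higher late (red) and the 330 lower late (blue), signed so that a change in the direction of the late minus early difference is positive. Boxes show the middle 50% of genes with the median as a line, whiskers the 5th and 95th percentiles. The medians are 0.79 for both sets at the middle interval and between 0.12 and 0.22 at the outer ones.

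By shape, 404 of the 618 genes changed by less than 1.5-fold inside each group and were classed as a step (184 up, 220 down). The class does not weigh these changes against the size of the step. ERp60 is in it with log2 changes of 0.39 from 36 to 50 h and 0.34 from 50 to 84 h. Another 72 went on in the same direction by at least 1.5-fold from 50 to 84 h (23 up, 49 down), 69 had begun to move by that much between 24 and 36 h (40 up, 29 down), 25 moved that far in both (14 up, 11 down), and 48 turned back by that much in one of them (27 up, 21 down). At least a 2-fold difference between the groups was seen in 307 genes and at least 4-fold in 104, 62 of them higher late and 42 lower. The median size of the log2 difference was 1.00. The space between the groups was narrow for most, with a median of 0.18 in log2(CPM + 0.5) from the closest late to the closest early library, and it reached 2-fold in 31 genes, 14 higher late and 17 lower late.

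The widest space was that of lin-28 (FBgn0035626), the RNA-binding protein that blocks maturation of the let-7 microRNA and marks early developmental stages in worms. Its libraries held 1.45, 2.51 and 1.97 CPM at 50 h and 0.515, 0.75 and 0.52 CPM at 84 h, against 127, 132 and 186 CPM at 24 h and 48.9, 142 and 97.2 CPM at 36 h. All 6 late libraries were nearly empty of it and no early library was, with 42 counts in all late libraries together and 3951 in the early ones. The difference was 108-fold (log2 fold change, late minus early here and below, -6.75 ± 0.29, SE). Neither the change from 24 to 36 h (log2 -0.63 ± 0.27, adjusted p = 0.282) nor that from 50 to 84 h (-1.66 ± 0.57, adjusted p = 0.155) passed the test, and the step from 36 to 50 h (-5.61 ± 0.38) exceeded both in size.

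E23 (FBgn0020445), an ABC transporter that is itself an ecdysone-induced early gene and can lower the hormone response, had 12.4, 45.5 and 6.52 CPM at 50 h and 3.78, 2.7 and 2.6 CPM at 84 h, against 815, 786 and 566 CPM at 24 h and 327, 769.6 and 508 CPM at 36 h. The 3 libraries at 50 h stood well below every early library and above every 84 h library, which held 3.78 CPM or less. The difference was 77.4-fold (-6.27 ± 0.52), or 116.3-fold without the second 50 h library, which held the 45.5 CPM. From 50 to 84 h the change was not called (-2.80 ± 0.76, adjusted p = 0.121). The gene atilla (FBgn0032422), which encodes a Ly6-family surface protein used as a lamellocyte marker, had 0, 0.209 and 0 CPM at 50 h and 0.515, 0.6 and 0.173 CPM at 84 h, against 26.4, 6.44 and 10.7 CPM at 24 h and 5.11, 13 and 6.1 CPM at 36 h. Late libraries together held 9 counts of it and early ones 383. The summed level of 10 hemocyte and fat body markers was 28.0 to 67.3 CPM late and 30.0 to 67.1 CPM early, and its part in the level of atilla was not tested.

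LanB1 (FBgn0261800), the laminin B1 chain of basement membranes, had 0.197, 1.53 and 3.22 CPM in the late libraries, against 16.9, 27.3 and 63.7 CPM in the early ones (values of each group of 6 are the lowest, the median and the highest, here and below). It was 18.9-fold lower late (-4.24 ± 0.40) and most of the way down by 50 h. The carboxylesterase gene alpha-Est9 (FBgn0015577) had 1.05, 2.87 and 6.7 CPM late, against 24.9, 29.2 and 102 CPM early. The second 24 h library held the 102 CPM, and the other early ones at most 37.9 CPM. Its fold of 11.6 (-3.54 ± 0.39) became 17.8 without the first 84 h library. CanB2 (FBgn0015614), a regulatory subunit of the calcium-dependent phosphatase calcineurin, had 2.06, 7.81 and 19.4 CPM in the late libraries, against 46.6, 58.4 and 87.7 CPM in the early ones and went on falling from 50 to 84 h (log2 -2.42 ± 0.34, adjusted p = 0.0001). Mctp (FBgn0034389), a membrane protein with several C2 domains, had 0.395, 1.72 and 2.43 CPM late, against 6.3, 11.2 and 33.6 CPM early. The aminopeptidase gene sda (slamdance) had 1.37, 8.16 and 17.6 CPM in the late libraries, against 37.7, 39.2 and 44.6 CPM in the early ones, and it too fell further from 50 to 84 h (-1.80 ± 0.38, adjusted p = 0.0083). The other genes with the widest spaces on the lower side, again without CG and CR numbers, were SP1173 (3.23-fold), fok (3.77-fold) and jv (4.45-fold), the last of which encodes a protein of the actin bundles in bristles. The annotation of jv overlaps that of its neighbour CG18769, which had means of 46.4 CPM late and 122 CPM early. Without a stated strand setting the reads of jv and CG18769 cannot be told apart. For SP1173 the mean log2 change was 0.02 from 24 to 36 h and 0.05 from 50 to 84 h, against a step of -1.73 ± 0.22.

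On the higher side, leaving out genes that bear only a CG or CR number (given further on), the widest space was that of Gr63a (FBgn0035468), known as a subunit of the carbon dioxide receptor of olfactory neurons. Its libraries held 55.4, 46.1 and 30.8 CPM at 50 h and 24.4, 31.4 and 17.3 CPM at 84 h, against 1.64, 0.153 and 2.34 CPM at 24 h and 1.78, 0.868 and 2.95 CPM at 36 h. The late libraries held 100 to 344 counts of it each and the early ones 1 to 15. The difference was 20.5-fold (4.36 ± 0.39), with no call inside either group (36 against 24 h 0.50 ± 0.62, adjusted p = 0.759, 84 against 50 h -0.86 ± 0.44, adjusted p = 0.443). Its neighbour in the genome, CG14977, was also higher late (33.9 ± 15.7 CPM, against 9.07 ± 1.61 CPM early, SD, n = 6 each).

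Eip93F (FBgn0264490), which encodes the ecdysone-induced transcription factor E93, followed in order of the gap with 36.4, 148 and 58.6 CPM at 50 h and 886, 571 and 649.8 CPM at 84 h, against 2.83, 5.67 and 8.31 CPM at 24 h and 5.55, 4.56 and 5.51 CPM at 36 h. Its change inside the early group was not called (36 against 24 h -0.06 ± 0.64, adjusted p = 0.979). It was up 15.4-fold between the 36 and 50 h means and rose a further 8.7-fold from 50 to 84 h (3.12 ± 0.47, adjusted p = 0.00532). The noncoding RNA pncr002:3R (FBgn0063127), lncRNA:CR33938 in RefSeq, had 1321, 1086 and 1093 CPM at 50 h and 5156, 7300.0 and 8235 CPM at 84 h, against 213, 225 and 306 CPM at 24 h and 227, 263 and 204 CPM at 36 h. It too had no called change inside the early group (-0.10 ± 0.18, adjusted p = 0.844) and rose again, 5.91-fold, from 50 to 84 h (2.56 ± 0.19, adjusted p = 6.6e-09). Per unit of transcript length it was very abundant late, with a deposited TPM of 21323 ± 18328 late, against 456 ± 121 early (SD, n = 6 each).

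lft (lowfat, FBgn0032230), which binds and stabilises the giant cadherins Fat and Dachsous, had 25.9, 32 and 52.4 CPM late, against 0.434, 1.63 and 6.66 CPM early, a 16.9-fold difference (4.08 ± 0.39). Taf12L, a relative of a subunit of the general transcription factor TFIID, had 41.5, 54.6 and 77.2 CPM in the late libraries, against 2.61, 12.3 and 14.9 CPM in the early ones. Glycogen phosphorylase, GlyP (FBgn0004507), which releases glucose units from glycogen, had 242, 219.8 and 198 CPM at 50 h and 346, 363 and 341 CPM at 84 h, against 67.3, 60.4 and 45.4 CPM at 24 h and 79.5, 57.7 and 61.2 CPM at 36 h. It had no called change from 24 to 36 h (0.19 ± 0.18, adjusted p = 0.658), was 3.32-fold up by 50 h and higher again at 84 h (0.67 ± 0.17, adjusted p = 0.0326). Arginine kinase, Argk, which buffers ATP as phosphoarginine, had 139.6, 244 and 373 CPM late, against 46.2, 62.5 and 80.7 CPM early and likewise rose on from 50 to 84 h (1.14 ± 0.18, adjusted p = 0.000527). Both enzymes thus kept the direction of the step inside the late group. The giant extracellular protein gene dp (dumpy) had 24.3, 35.2 and 88.2 CPM in the late libraries, against 3.15, 10.4 and 12.6 CPM in the early ones. The immunoglobulin gene dpr12 had 21.7, 38.7 and 47.9 CPM late, against 0.746, 9.75 and 11.4 CPM early, where its 5.35-fold difference became 12.2-fold without the second 24 h library, which held 11 CPM beside 0.746 and 0.852 CPM in the other 24 h libraries. The mitochondrial ribosomal protein gene mRpL46 had 21.2, 23.9 and 26.9 CPM in the late libraries, against 5.98, 7.72 and 11.7 CPM in the early ones, with mean log2 changes of -0.02 inside the late and 0.01 inside the early group, so its 6 late libraries and 6 early libraries formed a pair of plateaus in their means. The noncoding RNA noe had 174, 286 and 409 CPM late, against 47.9, 71.7 and 107 CPM early.

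**Figure D3:**
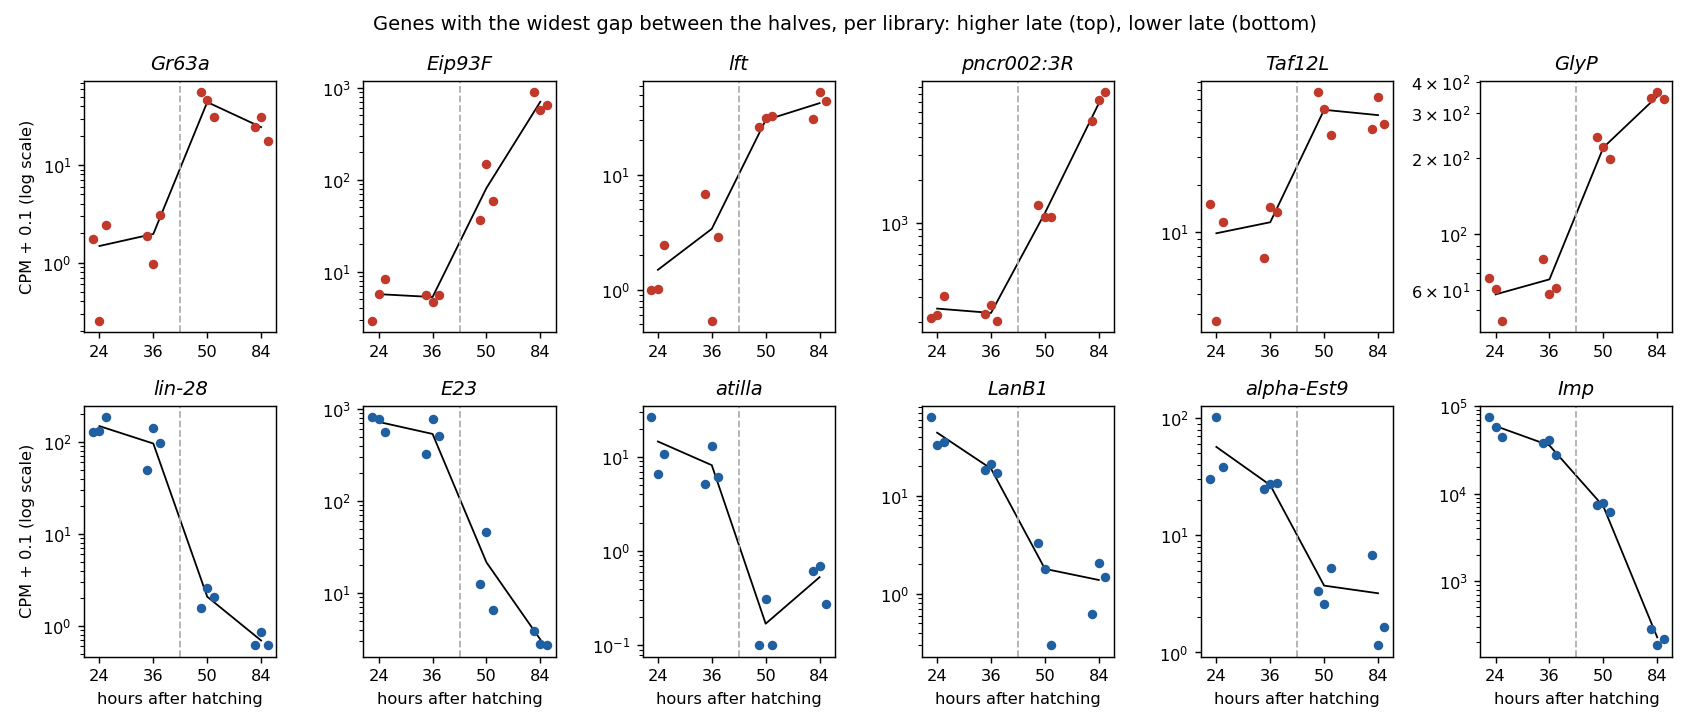
CPM plus 0.1 (log scale) in each of 12 libraries at 24, 36, 50 and 84 h after hatching (ages equally spaced, not to scale) for the 6 genes higher late (top, red) and the 6 lower late (bottom, blue) with the widest space between the groups, leaving out genes that bear only a CG or CR number. Points are libraries, lines join the means of 3, and the dashed line parts late from early. Eip93F, pncr002:3R and Imp kept moving after 50 h, and Gr63a, lft and Taf12L did not change by a called amount.

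Of 14 tested genes on the list of larval temporal factors, 4 were called higher late and 6 lower (against 10.3% and 12% of all genes tested), and 5 did not overlap (against 7.75%). Of those, Imp and Syp ran in opposite directions and on unlike schedules. Imp (FBgn0262735) had 7352, 7842 and 6221 CPM at 50 h and 282, 184 and 217 CPM at 84 h, against 74669, 58080.3 and 44227 CPM at 24 h and 38031, 40592 and 27568 CPM at 36 h. It was lower at each age than at the one before in the means. The fall from 36 to 50 h was 4.96-fold and that from 50 to 84 h 31.3-fold (log2 -4.97 ± 0.24, adjusted p = 1.5e-12). By fold the fall between 36 and 50 h was thus the smaller of these, over 14 h against 34 h. In CPM it was the larger, with means of 35397, 7138 and 228 CPM at 36, 50 and 84 h. Syp (FBgn0038826), in contrast, had 28953, 31287 and 25309 CPM at 50 h and 33093, 21468 and 22119.5 CPM at 84 h, against 624, 463 and 720.4 CPM at 24 h and 16823, 9547 and 7926 CPM at 36 h. It had risen 19-fold by 36 h (log2 4.25 ± 0.27, adjusted p = 1.97e-09), 2.49-fold more by 50 h, and did not change by a called amount after that (-0.16 ± 0.23, adjusted p = 0.867). It met the rule by a space of 0.35 log2. Chinmo's gene (FBgn0086758) had 342, 821 and 1184 CPM in the late libraries, against 1232, 1626 and 2353 CPM in the early ones and separated by 0.06 log2. Its one called change inside a group was the fall from 50 to 84 h (-1.13 ± 0.23, adjusted p = 0.00582).

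The other temporal factors overlapped between late and early libraries although several were called. The Broad factor gene br was 2.93-fold higher late (log2 1.55 ± 0.17, adjusted p = 5.44e-07), but peaked at 50 h with 849.6 ± 40.7 CPM, against 354 ± 136 CPM at 36 h, and fell again by 84 h (log2 -1.34 ± 0.23, adjusted p = 0.00131). The ecdysone receptor gene EcR had the same course, 1.46-fold higher late (adjusted p = 0.00243) and lower at 84 h than at 50 h (-1.12 ± 0.18, adjusted p = 0.000398). Seven-up's gene svp was 2.89-fold lower late (adjusted p = 3.6e-07), but had a called fall before, from 24 to 36 h (-1.73 ± 0.23, adjusted p = 0.000127). Lin29 (dati in RefSeq) was 2.62-fold lower late (adjusted p = 2.01e-06) with the same early fall (-1.71 ± 0.24, adjusted p = 0.000194). The Sox factor gene D was called lower late (log2 -0.87 ± 0.23, adjusted p = 0.00888) although its mean CPM was 40.5 ± 41.5 late and 36.5 ± 17.4 early, because the contrast is of mean log2 levels and D stood at 76.1 ± 22.1 CPM at 50 h and at 4.86 ± 0.948 CPM at 84 h. The genes cas, Kr, ab and mamo were not called (adjusted p of 0.521, 0.589, 0.499 and 0.06). Of the 14, 4 were called from 24 to 36 h (against 0.902% of all genes tested) and 7 from 50 to 84 h (against 3.06%).

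Of 22 ecdysone response genes, 6 were higher and 6 lower late (against 10.3% and 12% of all genes tested), with a list median of 0.02 against 0.04 over all genes tested, and 3 did not overlap (against 7.75%), E93's gene and E23 as above and Smr. The corepressor gene Smr, whose product represses targets of EcR among others, had 462, 553 and 638 CPM late, against 696, 893 and 1095 CPM early, 1.59-fold lower late. Of the called genes that overlapped, Eip74EF was 4.43-fold higher (adjusted p = 0.00799), the coactivator gene tai 1.99-fold lower (adjusted p = 5.01e-05), Eip75B 1.73-fold lower (adjusted p = 8.9e-05), crol 1.43-fold lower (adjusted p = 0.00157) and ftz-f1 1.57-fold lower (adjusted p = 0.000342). The ecdysone importer gene Oatp74D was 3.81-fold higher late (adjusted p = 0.012), at 662 ± 82 CPM at 50 h and 27.3 ± 21.9 CPM at 84 h. On the transporter list, 4 of 12 were higher late and 3 lower (against 10.3% and 12% of all genes tested). The organic cation transporter gene Orct2 did not overlap, with 1.68, 7.68 and 18.2 CPM in the late libraries, against 20.2, 30.8 and 48.3 CPM in the early ones, and turned back upward from 50 to 84 h (2.02 ± 0.38, adjusted p = 0.00325). The ABC transporter subunit gene w (white) had 236, 684 and 860.2 CPM late, against 91.7, 171 and 229 CPM early, with a space of 0.04 log2. The deposited counts cannot tell reads of the gene from reads of a marker transgene.

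Of 24 tested RNA-binding regulators 13 were lower late (against 12% of all genes tested) and 3 higher (against 10.3%), and 8 did not overlap, 7 of them lower late (against 4.14%). The list median was -0.45, and 0.83 under scaling to spike-in totals, which is 0.48 below the median of all genes under that scaling. Besides Imp and lin-28, the list held rin, the G3BP homologue of stress granules, with 743, 828 and 1050.0 CPM in the late libraries, against 1524, 2226 and 3125 CPM in the early ones (2.65-fold lower). The alan shepard gene shep had 147, 213 and 282 CPM late, against 372, 455 and 579.5 CPM early and fell further from 50 to 84 h (-0.67 ± 0.16, adjusted p = 0.0236). The muscleblind splicing factor gene mbl had 583, 1032 and 1714 CPM in the late libraries, against 1838, 2527 and 3022 CPM in the early ones, and it also fell on (-0.97 ± 0.23, adjusted p = 0.0193). The polypyrimidine-tract-binding protein gene heph had 410.1, 581 and 711 CPM late, against 813, 1087 and 1279 CPM early, and musashi's gene msi had 649.8, 807 and 999.6 CPM in the late libraries, against 1062, 1440.0 and 2218 CPM in the early ones. Syp was the 1 member that did not overlap on the higher side. The double-stranded-RNA-binding protein gene stau was called higher (1.27-fold, adjusted p = 0.0351), but lost its call in 7 of 12 fits that left out a library, and its levels overlapped. This list shares Imp, Syp and lin-28 with that of the temporal factors.

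In energy metabolism the called genes were all higher late. Of 15 glycolytic genes 10 were called higher (against 10.3% of all genes tested) and 0 lower (against 12%), 7 did not overlap, all higher late (against 3.61%), and the list median was 0.62, against 0.04 over all genes tested. Triosephosphate isomerase, Tpi, had 139, 179 and 217 CPM late, against 61.6, 77.3 and 90 CPM early (2.26-fold). Phosphoglycerate mutase, Pglym78, had 231, 279 and 307 CPM in the late libraries, against 115, 128 and 184 CPM in the early ones (2.02-fold). In each of the pair the lowest late library stood well above the highest early one. Aldolase (Ald) had 1092, 1289.5 and 1417 CPM late, against 629.9, 732 and 859 CPM early. Enolase (Eno) had 482, 539 and 590.3 CPM in the late libraries, against 341, 348 and 375 CPM in the early ones. Glyceraldehyde-3-phosphate dehydrogenase 1 (Gapdh1) had 415, 442 and 489 CPM late, against 258, 287 and 332 CPM early. For these 5 enzymes no change inside a group was called, neither from 24 to 36 h (adjusted p of 0.473, 0.276, 0.829, 0.859 and 0.844) nor from 50 to 84 h (0.162, 0.58, 0.98, 0.901 and 0.959). Lactate dehydrogenase, ImpL3, went on rising, with 216, 374 and 795 CPM in the late libraries, against 58, 158 and 195 CPM in the early ones and a called change from 50 to 84 h (1.44 ± 0.31, adjusted p = 0.022). Hexokinase A (Hex-A) had 109, 118 and 191 CPM late, against 42.4, 76.1 and 105 CPM early. The enzyme genes Pfk, Pgk and PyK were called with overlap (adjusted p of 0.00125, 0.0112 and 0.0296). Among 25 nuclear genes of oxidative phosphorylation 6 were called higher and 0 lower (against 10.3% and 12% of all genes tested), 23 lay above 0 and the median was 0.23. The complex I subunit gene ND23 had 29, 36.9 and 39.5 CPM in the late libraries, against 13.2, 16.1 and 24.8 CPM in the early ones. The complex IV subunit gene CoVIb had 138, 153 and 181 CPM late, against 96.6, 114 and 132 CPM early. These 2 alone of the 25 did not overlap (against 7.75% of all genes tested, and 3.61% higher late). Under scaling to spike-in totals the glycolytic median lay 0.58 above that of all genes, and that of oxidative phosphorylation 0.22. That scaling changes such distances little, so they are no separate support.

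The cell cycle lists held genes that were mostly higher late where they were called. Of 41 tested genes of mitosis and G2/M 12 were called higher and 1 lower, barr (against 10.3% and 12% of all genes tested), 33 lay above 0, 7 did not overlap, all higher late (against 3.61%), and the median was 0.29. Cyclin B, CycB (FBgn0000405), which drives entry into mitosis with Cdk1, had 467, 485 and 408 CPM at 50 h and 450.4, 462 and 443 CPM at 84 h, against 129.8, 144 and 158 CPM at 24 h and 218, 236 and 194 CPM at 36 h, a 2.57-fold difference with a space of 0.79 log2. All late libraries lay within 408 to 485 CPM, and no change from 50 to 84 h was called (adjusted p = 0.995), while the change from 24 to 36 h missed the threshold (0.59 ± 0.15, adjusted p = 0.0627). The Cdc25 phosphatase gene stg (string) had 440.1, 631 and 948 CPM in the late libraries, against 288, 327 and 368 CPM in the early ones but turned back from 50 to 84 h (-0.77 ± 0.16, adjusted p = 0.00719). The spindle-pole gene asp had 251, 282 and 342 CPM late, against 101, 138 and 167 CPM early. The midzone microtubule bundler gene feo (fascetto) had 84.1, 138 and 236 CPM in the late libraries, against 41.1, 50.1 and 69.3 CPM in the early ones and rose again from 50 to 84 h (1.00 ± 0.19, adjusted p = 0.00388). Cyclin B3 (CycB3), the anaphase-promoting activator gene fzy and the cytokinesis kinase gene sti were the other 3, at 1.73-fold, 1.7-fold and 1.51-fold. Cyclin A (CycA) was called higher (1.84-fold, adjusted p = 2.25e-06) but overlapped, as it rose from 24 to 36 h (0.83 ± 0.15, adjusted p = 0.00497) and fell from 50 to 84 h (-0.76 ± 0.15, adjusted p = 0.0045).

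Of 41 genes of DNA replication and G1/S 9 were higher late and 2 lower (against 10.3% and 12% of all genes tested), with a median of 0.16. On this list 2 genes did not overlap higher late and 1 lower late (against 3.61% and 4.14% of all genes tested). The replicative helicase subunits were called together, dpa (Mcm4), Mcm7, Mcm2, Mcm3, Mcm5 and Mcm6, with folds of 1.68, 1.55, 1.4, 1.39, 1.52 and 1.55. Of these, 2 did not overlap, dpa with 183, 202 and 214 CPM late, against 83.7, 126 and 135 CPM early, and Mcm7 with 277, 293 and 327 CPM in the late libraries, against 167, 194 and 219 CPM in the early ones. The loader that puts this helicase onto origins went the other way, since Cdc6 had 41.4, 60.2 and 75.4 CPM late, against 97.1, 121 and 176 CPM early (2.19-fold lower late, log2 -1.13 ± 0.16). Under scaling to spike-in totals the Cdc6 difference turned to 0.29, below the 1.31 of the median gene.

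Of 86 tested genes of cytosolic ribosomal proteins 85 lay below 0, 32 were called lower and 1 higher (against 12% and 10.3% of all genes tested), 15 did not overlap (against 7.75%), and the median was -0.31, or 0.99 under scaling to spike-in totals, 0.32 below all genes. RpL4 had 828, 878 and 931 CPM in the late libraries, against 1114, 1244 and 1340.4 CPM in the early ones (1.41-fold lower). RpL22 had 145, 168 and 179 CPM late, against 251, 261 and 289 CPM early. RpLP0, of the stalk, had 358, 399 and 437 CPM in the late libraries, against 552, 588 and 669 CPM in the early ones. All 3 were lower by a modest and even amount. RpL40, made as a fusion with ubiquitin, had 699.5, 803 and 852 CPM late, against 949, 1071 and 1235 CPM early. No member was called from 24 to 36 h or from 50 to 84 h. The member that did not overlap on the higher side was RpS15Ab, a close paralogue of RpS15Aa whose reads may be shared with it, with 42.6, 45.5 and 56.7 CPM in the late libraries, against 27.4, 30.1 and 42 CPM in the early ones. Of 24 ribosome biogenesis genes 3 were higher and 2 lower (against 10.3% and 12% of all genes tested). The largest subunit of RNA polymerase I, RpI1, had 143, 173 and 194 CPM late, against 98.6, 117 and 130.3 CPM early. Its initiation factor gene Tif-IA had 81.3, 104 and 181 CPM in the late libraries, against 40.6, 59.1 and 69.9 CPM in the early ones, and it rose on from 50 to 84 h (0.90 ± 0.19, adjusted p = 0.00598). The second-largest subunit gene, RpI135, had 19, 22.4 and 25.9 CPM late, against 27.1, 30.3 and 36 CPM early and so did not overlap in the opposite direction, although its late minus early contrast (log2 -0.44 ± 0.19) missed the threshold.

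Of 19 insulin, TOR and Myc genes 0 were higher late and 6 lower (against 10.3% and 12% of all genes tested), with a median of -0.31 (0.98 under scaling to spike-in totals, 0.32 below all genes). The insulin receptor gene InR had 387, 598 and 789.9 CPM in the late libraries, against 1021, 1259 and 1637 CPM in the early ones, a 2.2-fold difference with its main step from 36 to 50 h (-1.25 ± 0.17). Thor, the translation inhibitor 4E-BP and a target of Foxo, was 2.09-fold lower late (adjusted p = 1.19e-05) with overlap, since it came back up from 50 to 84 h (1.17 ± 0.21, adjusted p = 0.00158). The Myc gene dm was 1.5-fold lower (adjusted p = 0.000338).

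**Figure D4:**
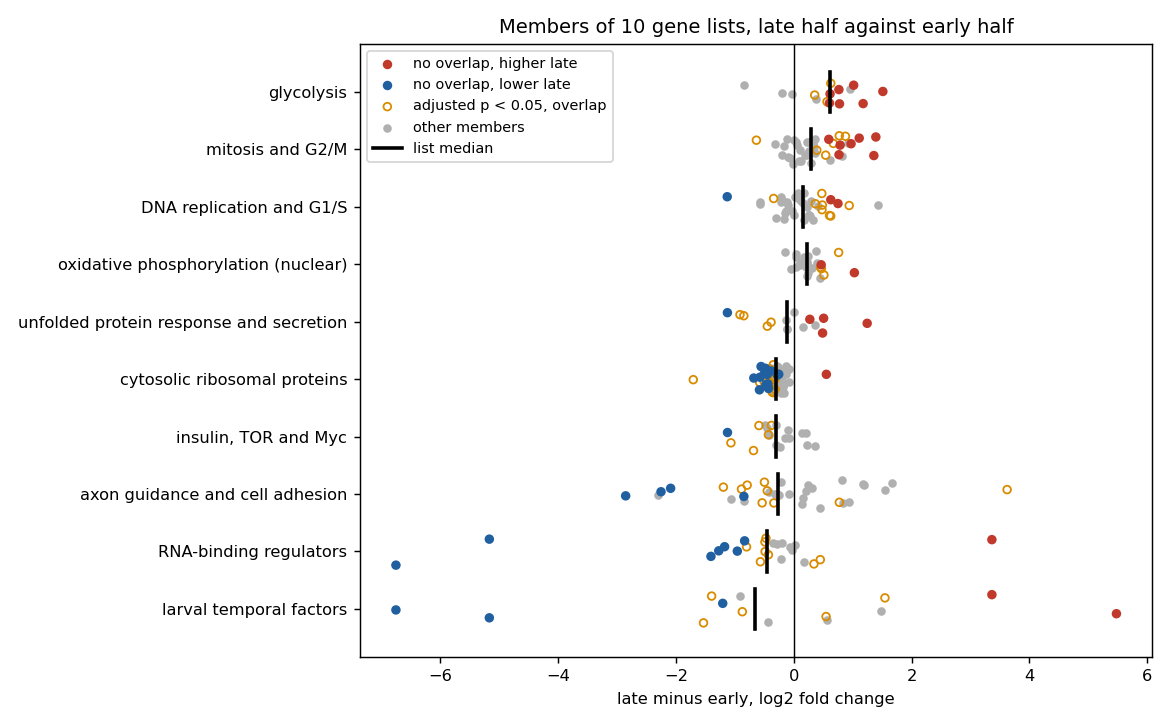
Late minus early log2 fold change of the tested members of 10 gene lists. Filled red and blue points are members that did not overlap and were higher or lower late, open orange circles are called members with overlap, grey points are the rest, and black bars are list medians. The ribosomal protein genes sit in a narrow band around -0.31 and the glycolysis genes around 0.62.

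Of 15 genes of the unfolded protein response and secretion 3 were called higher and 5 lower (against 10.3% and 12% of all genes tested), and the median was -0.12. The disulfide isomerase gene ERp60 had 355, 421 and 483 CPM late, against 271, 296 and 313 CPM early. The translocon gene Sec61beta had 92.6, 104 and 137 CPM in the late libraries, against 66.9, 79.2 and 86.9 CPM in the early ones. The signal recognition particle receptor gene SrpRbeta had 16.6, 21.4 and 27.9 CPM late, against 2.09, 11 and 16.2 CPM early. Sec61alpha did not overlap either, higher late, at 1.21-fold, and missed the threshold. Xbp1, the transcription factor of the unfolded protein response that is switched on by splicing, had 61, 77.7 and 96.7 CPM in the late libraries, against 132, 166 and 213 CPM in the early ones, 2.18-fold lower late with its main step from 36 to 50 h (-0.99 ± 0.18). The sensor genes Atf6 and PEK were lower at 1.36-fold (adjusted p = 0.0467) and 1.3-fold (adjusted p = 0.0337), as were Herp (adjusted p = 0.0471) and CrebA (adjusted p = 0.00446), the last with a return from 50 to 84 h (2.91 ± 0.33, adjusted p = 7.3e-06). Of 19 heat shock genes 0 were higher late and 4 lower (Hsp26, Hsc70-3, DnaJ-1 and puc), against 10.3% and 12% of all genes tested, with a median of -0.34 (0.90 under scaling to spike-in totals, 0.41 below all genes), and 0 did not overlap (against 7.75%). The genes Hsc70-4 and Hsp83 were not called (adjusted p of 0.347 and 0.669).

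Genes for contact with other cells and with the matrix moved both ways. Of 36 axon guidance and cell adhesion genes 11 were lower late and 2 higher (against 12% and 10.3% of all genes tested), with a median of -0.27 (1.00 under scaling to spike-in totals, 0.31 below all genes), and 4 did not overlap, all lower late (against 4.14%). The teneurin Ten-a had 49.9, 63.1 and 40.3 CPM at 50 h and 28.5, 22.7 and 24.3 CPM at 84 h, against 187, 204 and 161 CPM at 24 h and 164, 185 and 125 CPM at 36 h. Its change from 24 to 36 h was not called (-0.22 ± 0.20, adjusted p = 0.643), and it fell on from 50 to 84 h (-1.02 ± 0.21, adjusted p = 0.00532). The other teneurin, Ten-m, had 31.9, 23.9 and 20.3 CPM at 50 h and 45.2, 38.7 and 29.8 CPM at 84 h, against 272, 197 and 219 CPM at 24 h and 73.5, 87.3 and 67.5 CPM at 36 h. Its called fall inside a group was that from 24 to 36 h (-1.59 ± 0.21, adjusted p = 0.000127), and the change from 50 to 84 h was not called (0.57 ± 0.22, adjusted p = 0.216). Fasciclin 3, Fas3, had 4.83, 13.3 and 30.4 CPM late, against 43.3, 127 and 256 CPM early, with a fall from 24 to 36 h near the threshold (-2.03 ± 0.43, adjusted p = 0.0469). The Slit receptor gene robo had 51.7, 77.3 and 103 CPM in the late libraries, against 108, 145 and 172 CPM in the early ones. The ligand gene sli was 2.29-fold lower (adjusted p = 2.25e-06) and overlapped. Of 13 basement membrane and integrin genes 3 were higher late and 4 lower (against 10.3% and 12% of all genes tested). While LanB1 was almost absent late, the perlecan gene trol had 5.13, 14.7 and 19.3 CPM late, against 2.61, 3.13 and 4.03 CPM early, a 3.95-fold difference with no called change inside either group (log2 -0.11 inside the late and 0.05 inside the early one). The collagen IV gene Cg25C had 2.76, 3.34 and 6.01 CPM in the late libraries, against 0, 0.551 and 1.74 CPM in the early ones. It rests on 126 late and 20 early counts, and its call was lost in 6 of 12 fits that left out a library.

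Among the clock and PAR-bZIP factors, 2 of 7 were higher late and 2 lower (against 10.3% and 12% of all genes tested). The activator gene Pdp1 had 23.6, 45.3 and 74.2 CPM late, against 89.2, 97.9 and 121 CPM early and fell on from 50 to 84 h (-1.23 ± 0.21, adjusted p = 0.000866). The repressor gene cwo (clockwork orange) had 37.1, 60.4 and 69 CPM in the late libraries, against 79.5, 159 and 221 CPM in the early ones, with a called fall already from 24 to 36 h (-0.97 ± 0.21, adjusted p = 0.0178). The clock gene tim had 2.4, 3.22 and 17.2 CPM late, against 0.213, 1.33 and 2.24 CPM early, with 246 counts in the late libraries together and 43 in the early ones. The PAR-bZIP repressor gene vri was higher (2.5-fold, adjusted p = 2.4e-06), with its rise from 50 to 84 h (1.66 ± 0.23, adjusted p = 9.69e-05). Of 22 genes of the Hippo, Fat and Hedgehog pathways 1 was higher late, lft, and 3 lower (against 10.3% and 12% of all genes tested). The atypical myosin gene d (dachs), which acts downstream of Fat, had 6.7, 10.2 and 15 CPM in the late libraries, against 22, 25.7 and 40.7 CPM in the early ones. The 2 members that did not overlap, lft and d, differed in direction. As a share of the 22 they are near the 7.75% of all genes tested.

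Several lists held few or none of the non-overlapping genes, which made up 7.75% of all genes tested. At that share lists this short would hold few, so no lack is read from it. The called counts of these lists are to be read against 10.3% higher and 12% lower late over all genes tested. In Notch signalling, with 2 of 24 higher and 6 lower late and a median of -0.27 (0.94 under scaling to spike-in totals, 0.36 below all genes), N alone did not overlap, with 389, 450.4 and 471 CPM late, against 488, 546 and 648 CPM early, a 1.28-fold difference whose call was lost without the first 24 h, the second 36 h or the second 84 h library. Among 15 identity genes of type II neuroblasts 1 was higher (Six4) and 5 lower (tll, klu, grh, N and CR43283). The long noncoding RNA cherub, CR43283, known from brain tumours of this lineage, was 2.1-fold lower late (adjusted p = 0.000699) with overlap. Of 18 genes of the asymmetric division machinery 2 were higher (pros and stau) and 2 lower (aPKC and cno), and 0 did not overlap. Of 13 genes of intermediate progenitors and differentiation 4 were higher (ey, pros, nerfin-1 and dan) and 2 lower (D and hth), and 0 did not overlap. Of 25 Polycomb and trithorax genes 4 were higher and 2 lower, of 14 Activin and BMP genes 0 were higher and 2 lower (babo and tkv), and of 7 genes of male dosage compensation 1 was higher (msl-1), with 0 in each that did not overlap. The Activin receptor gene babo had 129, 144 and 230.4 CPM in the late libraries, against 205, 259 and 393 CPM in the early ones.

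Several of the steps were flat on either side. On the higher side the flattest with at least a 2-fold difference were mRpL46, trol and ND23 above and Mms19, a factor of cytosolic iron-sulphur cluster assembly, with 53.3, 72.3 and 84 CPM late, against 24.9, 26.6 and 40.7 CPM early. On the lower side they were SP1173 above, sol, sced and nAcRalpha-34E. The calpain gene sol had 31.1, 38.4 and 49.6 CPM in the late libraries, against 63.8, 80.2 and 103 CPM in the early ones. The gene sced had 31.7, 43.1 and 47.2 CPM late, against 68.8, 86.7 and 95.8 CPM early. The nicotinic receptor subunit gene nAcRalpha-34E (nAChRalpha5 in RefSeq) had 29.4, 58.2 and 64.3 CPM in the late libraries, against 109, 161 and 211 CPM in the early ones. For these 8 genes no change inside a group was called, the closest to it being an adjusted p of 0.847. They were picked for small changes inside the groups, so this describes the choice and tests nothing. In contrast, genes chosen after their values were seen show the other shapes. The piRNA pathway gene del (deadlock) moved down in all 3 intervals, with means of 84.4 ± 43.5, 54.5 ± 5.43, 24.5 ± 1.47 and 12.5 ± 0.448 CPM at 24, 36, 50 and 84 h (SD, n = 3 each). The T-box gene bi (bifid) went the other way after a fall, with 65.2 ± 25.1, 46.9 ± 11.2, 8.63 ± 6.87 and 14.1 ± 4.96 CPM, but its return was not called (0.72 ± 0.42, adjusted p = 0.527). The kinase gene sff (sugar-free frosting) had 10.1, 13 and 17.3 CPM late, against 34.2, 43.6 and 78.8 CPM early.

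CG9065 (Cox17 in RefSeq) was just inside, with 23, 32.9 and 38.1 CPM in the late libraries, against 14.5, 19.2 and 23 CPM in the early ones. CG31694 (Ifrd1 in RefSeq) was too, with 166, 178 and 196 CPM late, against 196, 221 and 285 CPM early. Just outside were CG18675 and the odorant receptor gene Or45a. CG18675 had no count in any early library and 0, 1.5 and 2.74 CPM in the late ones, and Or45a likewise no early count and 0, 1.37 and 3.99 CPM late, so that a late library without a count tied with the early ones. Among symbols with a number only, the widest spaces on the higher side were those of CG9990, CG18568 and CG1600 (snu and Drat in RefSeq for the first and the last). CG9990 had 49.6, 58.6 and 71.6 CPM in the late libraries, against 1.06, 6.02 and 8.22 CPM in the early ones. CG18568 had 7.28, 11.6 and 17.1 CPM late, against 0.448, 1.34 and 2.22 CPM early. CG1600 had 138, 193 and 239 CPM in the late libraries, against 25.8, 40.8 and 52 CPM in the early ones. On the lower side they were CG42566, with 2 counts in the late libraries together and 377 in the early ones, CG34384 and CG6770. CG34384 had 4.5, 11.5 and 22.6 CPM late, against 72.4, 99.7 and 165 CPM early. CG6770 had 111, 172 and 222 CPM in the late libraries, against 525, 750.4 and 965 CPM in the early ones.

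Some of the genes that did not overlap were neighbours in the order of genes in RefSeq. Of 284 placed genes higher late 34 had a neighbour higher late too (12%, against 4.97% of 7511 other placed genes that had such a neighbour). Of 320 lower late 30 had a neighbour lower late (9.38%, against 5.11% of 7475). There were 34 such pairs, 19 higher and 15 lower late, and the annotation of 10 of them overlaps, so that without a stated strand setting their reads cannot be told apart. The shares above include these 10 pairs, and shares without them were not computed. The pairs with no such overlap and the widest spaces were Gr63a with CG14977, CG31195 with Takl1, GlyP with tho2, and slpr with sdt. The neighbours sqd and rin, which lie side by side and both encode RNA-binding proteins, were 2.37-fold and 2.65-fold lower late. Among the overlapping pairs were Syp with CG31195 and CG14977 with CG14980. That limit therefore also bears on CG31195 and CG14977 in the pairs named above. By class of gene, 276 of the genes higher late and 318 of those lower late are protein-coding, and 5 and 4 are long noncoding RNAs, of 7702 and 88 tested.

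ERCC spike-in RNA had been added in equal amount to each library. Gene counts per spike-in count, per 100 sorted cells, were 163, 275 and 671 late, against 113, 193 and 237 early, 1.80-fold higher late (exact permutation test over libraries, two-sided, p = 0.0303), with the groups overlapping. Without division by cell number the ratio was also 1.80-fold higher late, with p = 0.0563 by the same exact permutation test. The first 50 h library held the 671, and the next highest, the second 84 h library, held 415. The number of genes with at least 1 count was 9588, 10017 and 10797 late, against 8952, 9174 and 9707 early (exact permutation test as before, p = 0.00433), also with overlap. The genes that did not overlap split likewise as 433 higher and 7 lower late under spike-in scaling and as 508 and 210 on the TPM. Of the 618, 173 also did not overlap under spike-in scaling (166 higher and all 7 lower late). Among 611 with a row of their own in the TPM table, 489 did not overlap in TPM in the same direction. Imp, lin-28, E23, LanB1 and atilla were lower late under spike-in scaling as well.

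**Figure D5:**
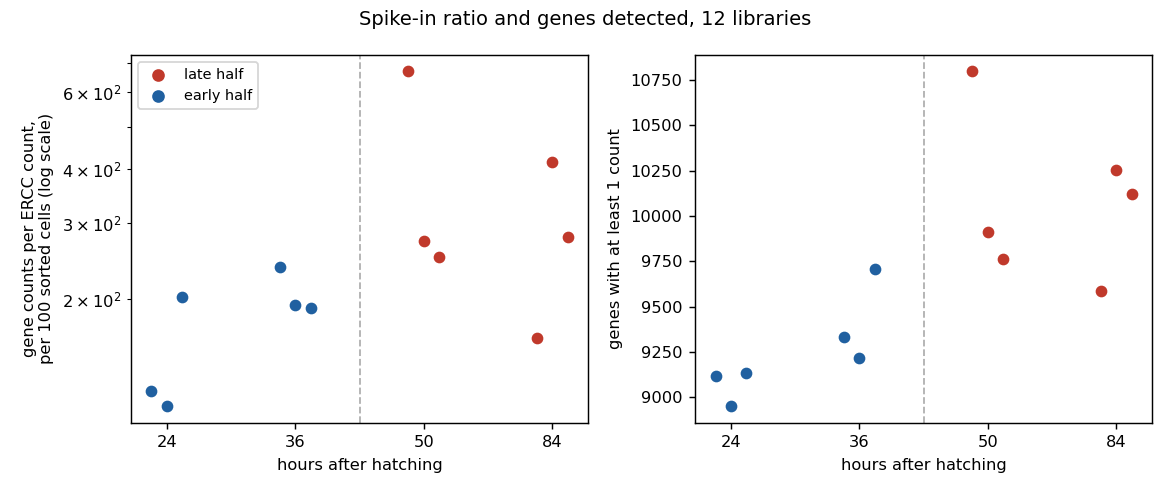
Gene counts per ERCC count and per 100 sorted cells (left, log scale) and genes with at least 1 count (right) in the 6 late (red) and 6 early (blue) libraries, by hours after hatching (ages equally spaced, not to scale). Late libraries range over 163 to 671 and 9588 to 10797, early ones over 113 to 237 and 8952 to 9707, and the dashed line parts the groups.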

How the data were processed

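RNA sequencing libraries were made from total RNA of sorted type II neuroblasts, with a whole-transcriptome amplification kit and an equal volume of ERCC spike-in, per the labels' protocols. The values used are read counts per gene, deposited by the authors as whole numbers, and TPM values, also deposited by the authors, which sum to 1000000 per library. Among the tools, HTSeq 0.6.1p1, STAR 2.4.0i, CASAVA, Bowtie2 2.1.0 and cutadapt 1.7.1 appear per the submitters' processing notes, as do BDGP5, dm3 and mm10 among the builds. Which of them served for which step, and the strand setting of the counting, are unknown here.

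The count table held 15339 gene rows, 92 ERCC rows and 1 row without a name (10 counts in all), and the ERCC rows and that row were left out of library sizes. Symbols in the text are those of the table, with RefSeq names beside a few of them. Counts were fitted in edgeR 4.0.16 (R 4.3.3) with TMM scaling, filterByExpr by age, a robust quasi-likelihood fit on all 12 libraries and age as a factor. This kept 7978 genes and 99.85% of gene counts. Late minus early is the mean log2 level of 50 and 84 h minus that of 24 and 36 h, and the contrasts of 36 against 24 h, 50 against 36 h and 84 against 50 h came from the same fit. P-values were adjusted by Benjamini-Hochberg over all genes tested, with a threshold of 0.05, and an SE is the log2 fold change over the root of its F statistic. Libraries held 4512098 to 8391731 gene counts, so that 3 counts, taken as the floor, are 0.357 to 0.665 CPM. The biological coefficient of variation was 36.2%. Whether the 3 libraries of an age stem from independent dissections is not in the labels, and the p-values only measure how far these libraries spread, a spread that can be technical.

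Named genes were, among called genes without overlap and with at least 10 CPM on average in the higher group, leaving out symbols made of a CG or CR number, the 12 higher and 12 lower late with the widest gap in log2(CPM + 0.5), the 4 flattest steps each way, and up to 4 per list. To these came all temporal factors, the genes at the edge of the rule, up to 3 CG symbols each way and, for lists without such a gene, the 2 highest. The genes, the gene lists and the tests were chosen with earlier results of these data known. Alternatives were DESeq2 1.42.0, limma 3.58.1 on log2(TPM + 1) or log2(TPM + 0.1), other scalings, no filter, a block by replicate number, cell number as a covariate, 2 levels in place of 4 ages, and each library left out.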

Additional observations from a re-analysis of the deposited data

Results flagged for a closer look

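Over 228 groups of 6 libraries (the late and the early libraries of 114 named genes, on log2(CPM + 0.5)), 8 held a library that stood apart from the others. The rule used marks about 1 group in 20 where all 6 values come from a single normal population. Each group here joins 2 ages, so that rate is no yardstick for the 8. The gap to the nearest other library is given as a share of the whole range on that log scale, and all 8 exceed the critical value of Dixon for 6 values. Among late libraries, the third of 50 h stood low for cwo with 37.1 CPM, against 60.1 to 69.0 CPM in the others (0.777), and for Mctp with 0.395 CPM, against 1.47 to 2.43 CPM (0.664). The first of 84 h stood high for the chromatin remodelling gene osa with 629 CPM, against 358 to 428 CPM (0.68), and for Cg25C with 6.01 CPM, against 2.76 to 3.64 CPM (0.655). Among early libraries, the second of 24 h stood low for dpa with 83.7 CPM, against 121 to 135 CPM (0.78), and high for alpha-Est9 with 102 CPM, against 24.9 to 37.9 CPM (0.703). The third of 24 h stood low for CG9990 with 1.06 CPM, against 4.18 to 8.22 CPM (0.637). The second of 36 h stood high for Optix with 58.2 CPM, against 14.9 to 23.8 CPM (0.66).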

How the results depend on the processing

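Scaling moved the split more than any other choice. Genes called late against early numbered 1782 (825 higher, 957 lower), against 4597 (4560 and 37) under scaling to ERCC totals, 1306 higher and 490 lower on log2(TPM + 1), and 1283 and 481 on log2(TPM + 0.1). DESeq2, DESeq2 size factors, no filter, cell number, rRNA rows left out, and 2 levels kept the total within 1.5 times. Leaving out each library gave 1364 to 1948 (596 to 950 higher, 768 to 998 lower). The 618 genes without overlap (288 higher, 330 lower) became 440 (433 and 7) under ERCC scaling, 508 higher and 210 lower on the TPM, 31 (14 and 17) with a gap of at least 2-fold, and 681 to 856 with a library left out (325 to 391 and 352 to 465), since fewer libraries have to be apart. Of the 618, 96.9% to 99.7% remained with a library left out. Groups that are apart stay apart when a library is removed, so losses there come only from the refitted scaling and filter. Under DESeq2 size factors 96.3% remained, and under ERCC scaling 28.0%. Calls inside the groups, 316 in all, became 53 under ERCC scaling, 506 with DESeq2, 152 and 139 on the TPM (pseudocount 1 and 0.1), 580 without a filter and 173 to 437 with a library left out. Those of 36 against 24 h, 72, became 20, 198, 34 and 31, 247 and 29 to 180 in that order, and 23 with cell number as a covariate. Those of 84 against 50 h, 244, became 33 under ERCC scaling, 118 and 108 on the TPM and 109 to 263 with a library left out. Those of 50 against 36 h, 339, became 148 under ERCC scaling, 528 with DESeq2, 225 on log2(TPM + 0.1), 541 without a filter and 157 to 444 with a library left out. With the replicate number as a block, 36 against 24 h gave 119 in place of 72 calls, and late against early 1864. It also gave 447 in place of 339 calls for 50 against 36 h, and 271 in place of 244 for 84 against 50 h. Deviations of same-numbered libraries correlated by -0.09 to 0.16 over 18 pairs (median 0.04), and of others by -0.13 to 0.14 over 36 (median -0.02). These ranges overlap, so whether the numbers pair libraries is not settled here. The block reversed none of the named genes. Of 114 named genes 96 were called, and 87 of those in each of 12 fits with a library left out. The fold moved by over 1.5 times in 8, namely CG42566, Cg25C, E23, Mhc, Or45a, alpha-Est9, atilla and dpr12. Many of the 96 were picked as called and without overlap. These counts thus follow in part from the choice and are no support for the differences. Under ERCC scaling 28 named genes changed sign. All came to a value below the 1.31 of the median gene, which follows from a shift of nearly the same size for all genes. Their log2 differences were CG31694 0.92, Cdc6 0.29, D 0.33, Eaat1 0.70, Hsc70-4 1.12, Hsp83 1.24, InR 0.21, N 0.96, RpL22 0.60, RpL4 0.79, RpL40 0.80, RpLP0 0.69, Smox 1.04, Smr 0.62, Xbp1 0.15, babo 0.47, brat 1.10, chinmo 0.045, eya 0.76, fne 0.79, hth 0.63, kis 1.04, nrv2 1.27, robo 0.43, sced 0.31, shep 0.14, sol 0.22 and trx 1.07. With 2 levels in place of 4 ages the difference of D became 0.15. The cause of these moves was not tested. Depth limits genes under the floor of 3 counts.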

Other observations

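Several genes of progenitors and of neural identity differed between late and early libraries although their levels overlapped. The eye-field factor gene ey, which marks older intermediate progenitors, had 4.15, 24.7 and 47.9 CPM in the late libraries, against 2.82, 4.24 and 18.4 CPM in the early ones (4.07-fold higher late, adjusted p = 0.0011 by edgeR's quasi-likelihood test). The zinc-finger gene nerfin-1 of differentiating neurons had 2.92, 14.1 and 28.5 CPM late, against 0.217, 2.06 and 9.59 CPM early (adjusted p = 0.000374) and was lower at 84 h than at 50 h (log2 -2.13 ± 0.58, adjusted p = 0.0455). The differentiation factor gene pros had 52.8, 71.7 and 126 CPM in the late libraries, against 17.5, 33 and 62.8 CPM in the early ones (adjusted p = 0.00417). On the lower side the orphan receptor gene tll had 109.9, 210.2 and 341 CPM late, against 276, 358 and 399.6 CPM early (adjusted p = 0.000534), the homeobox gene hth had 159, 249 and 356 CPM in the late libraries, against 303, 404 and 531 CPM in the early ones (adjusted p = 0.00053), and grh, which encodes the factor Grainyhead, had 556, 668 and 702 CPM late, against 632, 943 and 1194 CPM early (adjusted p = 0.00373). Summed over 17 genes of progenitors and differentiation the level was 881, 1072 and 1202 CPM late, against 1046, 1308 and 1516 CPM early. The glial glutamate transporter gene Eaat1 was 1.46-fold lower late (adjusted p = 0.00205), with its fall from 50 to 84 h (log2 -1.15 ± 0.17, adjusted p = 0.000245). The part of cells other than neuroblasts in these values was not tested.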
